A study of Homo sapiens with 15 samples.

Results

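The 6 genes described here are *SERPINB2*, which encodes plasminogen activator inhibitor type 2 (PAI-2), the serpins *SERPINB8*, *SERPINB9* and *SERPINA1*, the urokinase gene *PLAU* and the urokinase receptor gene *PLAUR*. They were taken by gene symbol from a count table of 60286 genes, and each symbol matched 1 gene. *SERPINB2* was picked because it was among the largest falls in every group of stimulated cells, so its values against the control are given as a description without a test. RNA was sequenced in 15 libraries of THP-1, an established human monocytic leukaemia cell line with a wild-type genotype by its labels. The control group (NC) received PBS, and the other groups received bacterial extracellular vesicles (BEVs), the small membrane vesicles that bacteria shed into their medium. EUC and EPL cells received *E. coli* BEVs at 1 μg/mL, isolated by ultracentrifugation (UC) or by precipitation with ε-poly-L-lysine (PL). SUC and SPL cells received *S. aureus* BEVs at 10 μg/mL, isolated by the same methods. Each group had 3 libraries. Species and dose changed together, so they cannot be told apart, and no group here received ε-poly-L-lysine alone. The study's methods give 6 hours of incubation, while the labels give Day 0 for every group. All libraries come from a single cell line, and the methods give triplicates of stimulated cells without naming separate passages or days, so p-values measure only the spread between these libraries, which may be technical.

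Urokinase bound to its receptor on the cell surface cuts plasminogen into plasmin, a protease that dissolves fibrin and degrades matrix. Tissue plasminogen activator (*PLAT*) does the same, mainly on fibrin and on cell-surface docking proteins. Serpins are suicide inhibitors that trap a protease in a covalent complex. PAI-2 blocks urokinase, and a large part of the PAI-2 made by monocytes stays inside the cell. The clade B serpins, to which *SERPINB2*, *SERPINB8* and *SERPINB9* belong, mostly lack a classical signal peptide.

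The table held 14399421 to 16637345 reads per library (median 15831655). Levels are given as CPM, that is counts relative to the TMM-normalized size of the library. Fold changes come from edgeR's quasi-likelihood test over the 17198 genes with enough counts, with Benjamini-Hochberg adjusted p-values. A differentially expressed gene (DEG) had to change at least 2-fold with an adjusted p no higher than 0.01, the thresholds of the study. Of 10 monocytic markers, 8 had a mean over 1 CPM, and their summed level was 1150 to 1160 CPM in NC and 1710 to 2250 CPM in BEV libraries. *CD68* and *CD86* stayed under that level. The fibroblast marker *COL1A1*, with 2 other fibroblast markers, summed to 0.64 to 0.941 CPM in NC and 2.06 to 6.95 CPM in BEV libraries, and T cell and epithelial markers all had means under 1 CPM; their part in the results was not tested. The T cell marker *CD3D*, the erythroid markers *HBA1* and *HBB* and the platelet markers *PPBP* and *PF4* had no count. In bulk RNA, fewer cells of a type and less RNA per cell cannot be told apart. Libraries EUC3, SUC3 and EPL1 stood highest on the main axis of variation within groups, which held 59.9% of that variance, and no label names a batch.

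*SERPINB2* (ENSG00000197632) lies on the plus strand of chromosome 18 at 63871692 to 63903888 (hg38, GENCODE release 44). The 250 bases before its RefSeq transcription start are shown because *SERPINB2* had the deepest fall of the 6 genes. They lie at chr18:63887455-63887704 on the plus strand of GRCh38.p14, within an intron of a longer GENCODE transcript of the gene, and are written 5′ to 3′. Capitals mark a match to the AP-1 site TGANTCA at position -102 from the start and a TATA box, TATAAA, at -30.
SERPINB2: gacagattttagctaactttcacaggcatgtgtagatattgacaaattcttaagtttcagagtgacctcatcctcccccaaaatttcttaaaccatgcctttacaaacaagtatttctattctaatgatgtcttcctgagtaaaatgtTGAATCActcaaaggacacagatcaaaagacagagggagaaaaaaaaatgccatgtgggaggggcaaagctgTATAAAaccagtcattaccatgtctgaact
Motifs were searched on both strands of the same 250 bases of all 6 genes, which all matched a RefSeq promoter, and of 35114 promoters in all. TGANTCA was found in *SERPINB2*, *SERPINB8* and *PLAUR*, and in 6.57% of all promoters. TATAAA was found in *SERPINB2*, *SERPINB8* and *SERPINB9*, and in 10.7% of all promoters. The cAMP response element TGACGTCA (1.65% of all promoters), the core of the interferon-stimulated response element (3.02%) and the NF-kappa B site (5.21%) had no match in the 6 genes. The AP-1 matches of *SERPINB8* and *PLAUR* are shown with 10 bases on each side to compare them with that of *SERPINB2*, again in capitals. They lie at chr18:63969886-63969912 and chr18:63970043-63970069 on the plus strand and at chr19:43670339-43670365 on the minus strand. By GENCODE the *PLAUR* stretch and the *SERPINB8* stretch at -28 also lie in untranslated first exons of longer transcripts.
SERPINB8, match at -185: gagtcaaacgTGAATCAacggtgaaaa
SERPINB8, match at -28: cgaacggttcTGAGTCAtctgccggaa
PLAUR, match at -186: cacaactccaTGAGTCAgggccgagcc
These matches describe the letters only, and binding was not measured.

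*SERPINB2* was high in every NC library and low in every BEV library. Its NC libraries had 30.3, 37.8 and 40.4 CPM. The EUC libraries had 2.15, 1.99 and 1.25 CPM, and the EPL libraries had 1.05, 1.47 and 0.999 CPM. In SUC cells it was at 1.78, 2.87 and 2.90 CPM, and in SPL cells at 1.47, 1.80 and 1.93 CPM. The lowest NC library therefore stood far above the highest BEV library, and the BEV groups lay close together. The mean was 36.2 ± 5.21 CPM in NC, and 1.79 ± 0.479, 1.17 ± 0.256, 2.52 ± 0.643 and 1.73 ± 0.238 CPM in the EUC, EPL, SUC and SPL groups (SD, n = 3 each). In the same order, the log2 fold changes were -4.33, -4.94, -3.83 and -4.38, with standard errors of 0.19 to 0.22. These are falls of 20.1-fold, 30.7-fold, 14.3-fold and 20.8-fold. Among the 17198 genes, the fall ranked 10 with EUC and 5 with EPL BEVs, and 3 in both *S. aureus* groups. The counts behind these values were 1793 reads over the NC libraries and 83, 55, 116 and 79 reads over the EUC, EPL, SUC and SPL libraries, so the differences among BEV groups rest on few reads. A GENCODE transcript model of another gene, ENSG00000289724, shares 20% of the exon bases of *SERPINB2* on the same strand and was not analysed here.

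**Figure D1:**
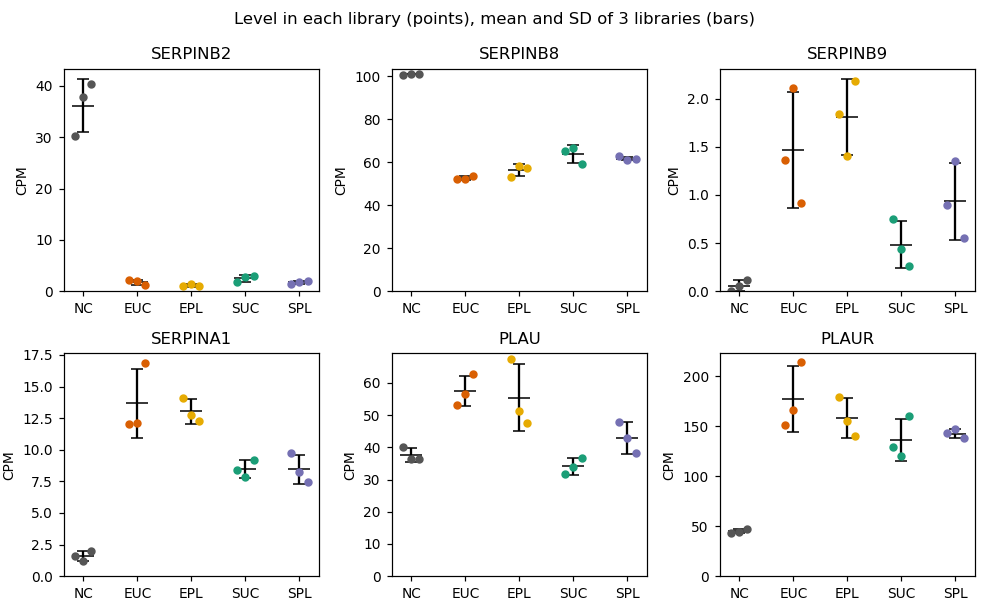
CPM of each of the 6 genes (y axis, linear and starting at 0) in the 15 libraries by group (x axis). Points are libraries and the bars are the mean and SD of 3 libraries. *SERPINB2* drops from 30.3 to 40.4 CPM in NC to at most 2.90 CPM in BEV libraries, while *PLAUR* moves from 43.1 to 46.9 CPM in NC to at least 120.0 CPM.

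Ordered by their mean, the BEV groups ran SUC, EUC, SPL and EPL. The libraries of SUC and EUC overlapped, as did those of EUC and SPL. The highest EPL library, at 1.466 CPM, was just under the lowest SPL library, at 1.469 CPM, a difference far smaller than the spread within either group. In the test of the *E. coli* groups against the *S. aureus* groups, the log2 difference of *SERPINB2* was -0.53 (standard error 0.19, adjusted p = 0.124, edgeR), and the libraries overlapped. The PL groups were lower than the UC groups by log2 differences of -0.61 (95% interval -1.20 to -0.02, adjusted p = 0.947, edgeR) with *E. coli* BEVs and -0.54 (-1.07 to -0.02, adjusted p = 0.828) with *S. aureus* BEVs. Neither passed the test, and the intervals do not show that the methods gave the same level. The difference between methods did not differ detectably between species (interaction -0.07, 95% interval -0.85 to 0.72, adjusted p = 1, edgeR).

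Of the other 5 genes, 3 were DEGs with a higher level in EUC, EPL and SPL and 2 in SUC, and 0 were DEGs with a lower level. Among the 3 is *SERPINB9*, which passed the filter on low counts only through the groups where it is high, and *PLAUR* and *SERPINA1* were the other DEGs in every group. Over all tested genes, in the order EUC, EPL, SUC and SPL, 9.43%, 9.38%, 6.82% and 7.76% were DEGs with a higher level, and 5.75%, 5.15%, 3.06% and 3.70% with a lower level. On the p threshold alone, 4 rose and 1 fell in EUC and in EPL, 2 rose and 1 fell in SUC, and 3 rose and 1 fell in SPL, with *SERPINB9* among those that rose in EUC, EPL and SPL. On that threshold, 16.5%, 16.0%, 12.4% and 13.3% of all genes rose and 14.0%, 13.2%, 9.15% and 10.6% fell in these groups. The 4 comparisons share the NC libraries.

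*PLAUR* (ENSG00000011422, chromosome 19, 43646095 to 43670547, minus strand), the receptor that holds urokinase at the cell surface, rose in all BEV groups. Its NC libraries had 43.1, 44.4 and 46.9 CPM. EUC libraries had 151, 166 and 214 CPM, and EPL libraries had 179, 156 and 140 CPM. SUC libraries had 129, 120.0 and 160 CPM, and SPL libraries had 143, 147 and 138 CPM. Every BEV library was above every NC library, a separation that 50.8%, 52.1%, 46.7% and 54.4% of all tested genes showed in the EUC, EPL, SUC and SPL groups, in either direction. It rose 3.95-fold with EUC, 3.52-fold with EPL, 3.04-fold with SUC and 3.18-fold with SPL BEVs. On the log2 scale these changes were 1.98, 1.82, 1.60 and 1.67, each with a standard error of 0.13 and an adjusted p of 1.92e-09, 6.29e-09, 4.63e-08 and 2.36e-08 (edgeR). The *E. coli* groups were higher than the *S. aureus* groups by 0.26 on the log2 scale, which missed the threshold (95% interval 0.07 to 0.45, adjusted p = 0.103, edgeR). In 4 of 4 BEV groups the library that stood highest on the main axis of variation within groups also had the highest *PLAUR* level. The part of that axis in the result was not tested, and without EUC3, SUC3 and EPL1 the log2 fold changes were 1.82, 1.72, 1.48 and 1.67.

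*PLAU* (ENSG00000122861, chromosome 10, 73909177 to 73917496, plus strand), the urokinase gene itself, changed far less than its receptor. It had 40.0, 36.4 and 36.3 CPM in the NC libraries. EUC libraries had 53.3, 56.6 and 62.7 CPM and EPL libraries 67.4, 51.3 and 47.7 CPM, all above NC. In these groups 50.8% and 52.1% of all tested genes were separated from NC, in either direction. In SUC it had 31.6, 34.0 and 36.8 CPM, which overlapped NC, and in SPL it had 48.0, 42.8 and 38.1 CPM, which overlapped as well. The log2 fold change was 0.61 in EUC (standard error 0.12, adjusted p = 0.000623, edgeR) and 0.56 in EPL (0.12, adjusted p = 0.00140), both past the p threshold and under the fold threshold. It was -0.14 in SUC (95% interval -0.40 to 0.13, adjusted p = 0.453, edgeR) and 0.20 in SPL (-0.07 to 0.46, adjusted p = 0.252). The difference between the species passed the p threshold, with 0.56 on the log2 scale (standard error 0.09, adjusted p = 0.000472, edgeR) and only the lowest EPL library, at 47.7 CPM, under the highest SPL library, at 48.0 CPM. Without EUC3, SUC3 and EPL1 that difference was 0.47. Between isolation methods, the SPL libraries did not overlap the SUC libraries and were 0.33 higher (95% interval 0.07 to 0.60, adjusted p = 0.814, edgeR), while EPL and EUC overlapped and differed by -0.05 (-0.31 to 0.20, adjusted p = 0.954). The antisense gene *C10orf55* covers 31% of the exon bases of *PLAU*, and since the strand setting of the counting is not given, their reads cannot be told apart there. *C10orf55* had 29 to 50 reads per group.

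**Figure D2:**
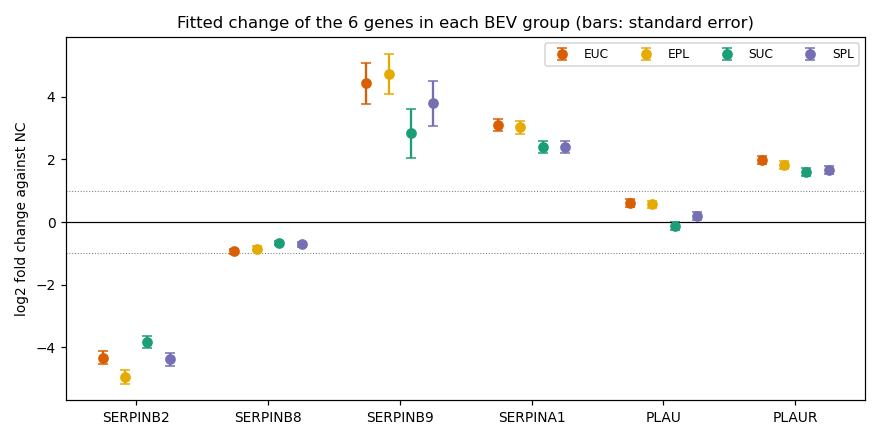
Fitted log2 fold change against NC (y axis) of the 6 genes (x axis) in EUC, EPL, SUC and SPL. Points are estimates, bars are standard errors, and dotted lines mark a 2-fold change. *PLAUR* and *SERPINA1* lie above the upper line in every group, *SERPINB8* lies between the lines on the low side, and *SERPINB2* is lowest in every group.

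*SERPINA1* (ENSG00000197249, chromosome 14, 94376747 to 94390693, minus strand) encodes alpha-1 antitrypsin, the main inhibitor of neutrophil elastase, which is secreted by hepatocytes and also made by monocytes. It was low in NC libraries, at 1.60, 1.18 and 2.03 CPM. EUC libraries reached 12.03, 12.1 and 16.8 CPM, and EPL libraries 14.1, 12.7 and 12.2 CPM. SUC libraries reached 8.40, 7.81 and 9.18 CPM, and SPL libraries 9.71, 8.24 and 7.45 CPM. No BEV library overlapped NC, as for 46.7% to 54.4% of all tested genes in a BEV group, and no *S. aureus* library reached the lowest *E. coli* library. The gene rose 8.50-fold with EUC BEVs (log2 3.09, standard error 0.20, adjusted p = 9.61e-10, edgeR) and 8.11-fold with EPL BEVs (3.02, adjusted p = 1.40e-09). With SUC and SPL BEVs it rose 5.27-fold and 5.28-fold (2.40 and 2.40, adjusted p = 6.41e-08 and 5.41e-08, edgeR). The *E. coli* groups were higher than the *S. aureus* groups by 0.65 on the log2 scale (standard error 0.11, adjusted p = 0.00134, edgeR), under the fold threshold. Such a separation of the species without overlap was seen for 4.29% of all tested genes.

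*SERPINB9* (ENSG00000170542, chromosome 6, 2887270 to 2903309, minus strand), a cytosolic inhibitor of granzyme B, was almost absent from NC cells. The NC libraries held 0, 1 and 2 reads, and the gene passed the filter on low counts only through the groups where it is high. EUC libraries had 1.37, 2.11 and 0.920 CPM and EPL libraries 1.84, 1.40 and 2.19 CPM, against 0, 0.0588 and 0.119 CPM in NC. SUC libraries had 0.752, 0.437 and 0.264 CPM and SPL libraries 0.894, 1.35 and 0.552 CPM. Every BEV library was above every NC library, though SUC3 held few reads, and 46.7% to 54.4% of all tested genes were so separated in a BEV group. With 3 reads in NC and 68, 85, 22 and 43 reads in the BEV groups, the ratio to NC was 24.2 for EUC (95% exact binomial interval 7.95 to 120.5), 29.8 for EPL (9.86 to 147), 7.91 for SUC (2.38 to 41.3) and 15.5 for SPL (4.96 to 78.1). These intervals cover counting error only. By edgeR after that filter the rise passed in EUC (adjusted p = 3.49e-05), EPL (1.38e-05) and SPL (0.000407) and just missed in SUC (0.0103), and in the fit without a filter it passed in all 4 groups. The *E. coli* groups were higher than the *S. aureus* groups by 1.27 on the log2 scale (95% interval 0.60 to 1.94, adjusted p = 0.0202, edgeR), which missed the threshold, and the libraries overlapped.

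*SERPINB8* (ENSG00000166401, chromosome 18, 63970029 to 64019779, plus strand), known as an inhibitor of furin, lies downstream of *SERPINB2* and fell by less than 2-fold. The NC libraries had 100.8, 101.0 and 101.1 CPM. EUC libraries had 52.4, 52.2 and 53.6 CPM, EPL libraries had 53.1, 58.1 and 57.6 CPM, SUC libraries had 65.2, 66.9 and 59.1 CPM and SPL libraries had 62.7, 61.1 and 61.4 CPM. All BEV libraries were below all NC libraries, and all *E. coli* libraries were below all *S. aureus* libraries. Of all tested genes, 46.7% to 54.4% were separated from NC in a BEV group, and 4.29% were separated by species, in either direction. Its log2 fold change was -0.94 for EUC (standard error 0.07, adjusted p = 1.16e-08, edgeR), -0.84 for EPL (4.49e-08), -0.66 for SUC (1.30e-06) and -0.71 for SPL (4.93e-07), so the gene passed on p in every group and was a DEG in none. With upper-quartile scaling the value in EUC was -1.03 and the gene was a DEG there. The species differed by -0.20 on the log2 scale (95% interval -0.31 to -0.10, adjusted p = 0.0205, edgeR), which missed the threshold. The genes *HMSD* and ENSG00000283667 share 6.42% and 2.65% of its exon bases.

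Between the BEV groups, 0 of the 6 genes were DEGs by species, where 0.686% of all genes were, and 2 of the 6 (*PLAU* and *SERPINA1*) passed on p at any size, where 3.87% did. Between isolation methods and for the interaction of species and method, 0 of the 6 genes were called by edgeR or by DESeq2. Over all genes edgeR called 0% for EPL against EUC, 0.00581% for SPL against SUC and 0% for the interaction, with 604, 1000 and 659 genes at an unadjusted p under 0.05.

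**Figure D3:**
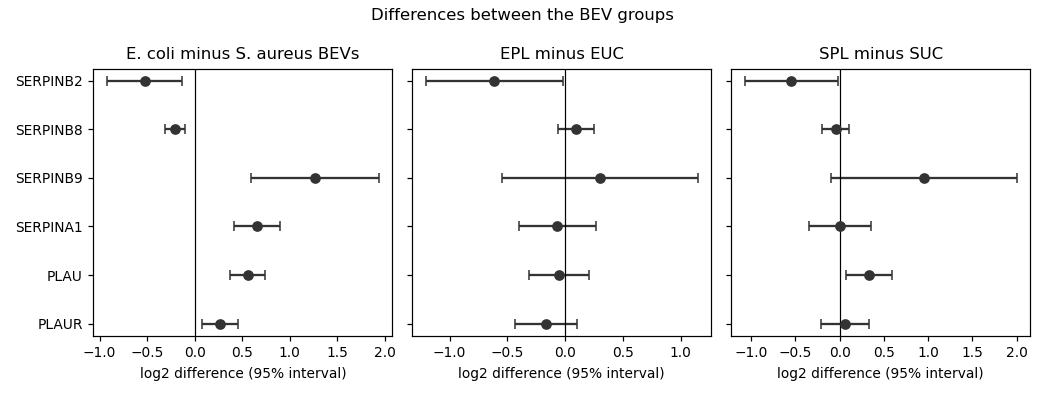
Log2 difference with its 95% interval (x axis) of the 6 genes (y axis) between species, between isolation methods for *E. coli* BEVs and between methods for *S. aureus* BEVs. The interval of *SERPINA1* for species runs from 0.41 to 0.90 and that of *PLAU* from 0.37 to 0.74, both above 0, while most intervals for the methods cross 0.

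Per length, the genes changed their order. In NC cells the level per kb of exon was 17.5 CPM for *SERPINB8*, 13.2 ± 1.90 CPM for *SERPINB2*, 12.7 CPM for *PLAU*, 10.1 CPM for *PLAUR*, 0.327 CPM for *SERPINA1* and 0.0143 CPM for *SERPINB9* (means, n = 3, exons merged over all GENCODE transcripts). The ratio of *PLAU* to *SERPINB2* per length ran from 0.836 to 1.23 in NC libraries, so their levels per kb of merged exon were about the same there. Which transcripts were expressed was not determined, so this does not compare numbers of transcripts. The median of that ratio was 26.5, 44.4, 11.8 and 22.0 in the EUC, EPL, SUC and SPL libraries. *PLAUR* per length was below *PLAU* in every NC library (ratio 0.714 to 0.854) and above it in every BEV library, with medians of 1.94, 1.94, 2.70 and 2.27.

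Other inhibitors of the system were compared with *SERPINB2*. *SERPINE2*, which encodes protease nexin-1, an inhibitor of thrombin, urokinase and plasmin, had 7.998 to 11.7 CPM in NC libraries. It reached 642 ± 85.9 CPM with EUC, 547 ± 9.61 with EPL, 281 ± 47.4 with SUC and 338 ± 14.8 with SPL BEVs (SD, n = 3). The rises were 65.2-fold, 55.6-fold, 28.5-fold and 34.3-fold (log2 6.03, 5.80, 4.83 and 5.10, largest adjusted p = 2.17e-13, edgeR). Per length, *SERPINE2* stood at 0.0791 to 0.0886 of the level of *SERPINB2* in NC libraries, and at a median of 97.7, 156, 31.8 and 54.9 times that level in EUC, EPL, SUC and SPL. *SERPINF2*, the plasmin inhibitor alpha-2 antiplasmin, had means of 0.847 to 1.24 CPM and passed in no group.

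**Figure D4:**
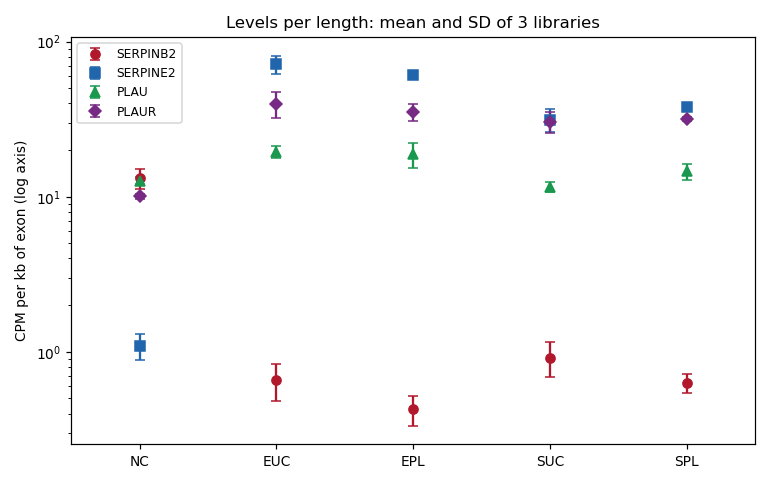
Mean level per kb of exon with its SD over 3 libraries (y axis, log scale) of *SERPINB2*, *SERPINE2*, *PLAU* and *PLAUR* in the 5 groups (x axis). *SERPINB2* and *PLAU* coincide near 13 CPM per kb in NC, and in the BEV groups *SERPINB2* is far below the other genes while *SERPINE2* has the highest mean, with SDs that overlap those of *PLAUR* in SUC.

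Of the other genes of plasminogen activation, binding and inhibition, 25 were listed and 19 had enough counts. Of these, 6 were DEGs with a higher level in EUC, 5 in EPL, and 3 and 4 in SUC and SPL, and 0 were DEGs with a lower level in any group. The median log2 fold change of the 19 genes was 0.33, 0.19, 0.42 and 0.28, against -0.01 to 0.01 for all tested genes. By role, 2, 2, 1 and 2 of 4 activation genes, 2, 2, 1 and 1 of 9 plasminogen binding genes and 2, 1, 1 and 1 of 6 plasmin inhibitors were higher. *PLG*, the plasminogen gene, had 0 counts in every library. *PLAT* had 0.446 CPM in NC and 4.13, 2.66, 0.987 and 1.43 CPM in EUC, EPL, SUC and SPL. Its log2 fold change was 3.19 with EUC (adjusted p = 2.95e-07, edgeR), 2.56 in EPL (6.53e-06), 1.67 in SPL (0.00117) and 1.13 in SUC, where it missed (0.0275). *PLAT* had 22 reads over the NC libraries and passed the filter on low counts only through the BEV groups. In the fit without a filter its calls were the same. *ANXA2* and *S100A10* encode annexin A2 and its partner, which together dock plasminogen and tissue plasminogen activator on the cell surface. *ANXA2* rose from 92.7 CPM to 341, 308, 273 and 292 CPM (log2 1.88, 1.73, 1.56 and 1.66, largest adjusted p = 2.34e-08, edgeR). *S100A10* rose from 47.9 CPM to 104, 107, 74.0 and 76.0 CPM, past the fold threshold in EUC and EPL (log2 1.12 and 1.16) and under it in SUC and SPL (0.63 and 0.67). Without EUC3 its value in EUC was 0.94 and it was no DEG there.

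Among the other clade B serpins, 12 were listed and 7 had enough counts. In EUC and EPL, 2 were DEGs with a higher level and 1 with a lower level, and in SUC and SPL 1 was higher and 1 lower, where 9.43%, 9.38%, 6.82% and 7.76% of all genes were higher and 5.75%, 5.15%, 3.06% and 3.70% lower. The higher genes, *SERPINB9* and *SERPINB7*, passed the filter only through the BEV groups, so their count supports nothing about the list. *SERPINB10*, which follows *SERPINB2* on the same strand at 63907958 to 63936111, was the gene that fell. Its NC libraries had 16.4, 16.2 and 14.01 CPM, and its BEV libraries had 1.77 to 3.76 CPM. Its log2 fold change was -2.45 for EUC, -2.85 for EPL, -2.21 for SUC and -2.57 for SPL (largest adjusted p = 1.40e-07, edgeR). *SERPINB7*, which precedes *SERPINB2* at 63752935 to 63805376, had 0 counts in NC and 55, 65, 17 and 10 reads in the BEV groups. It was at least 19.6-fold, 22.8-fold, 6.11-fold and 3.604-fold higher than the floor of 3 counts over the NC group, with an adjusted p of 8.003e-05, 5.02e-05, 0.00522 and 0.0206 by edgeR after the filter, so SPL missed. It passed the filter only through the EUC and EPL groups. In the fit without a filter it was called in all 4 groups. Its call in SUC was lost without NC1, NC2, NC3 or SUC1, and SPL was also called by DESeq2 and without SUC2. Further along that cluster, *SERPINB3* and *SERPINB11* had 0 counts, *SERPINB4*, *SERPINB5* and *SERPINB12* had at most 7 reads per group, and *SERPINB13* passed in no group. Beside *SERPINB9* on chromosome 6, *SERPINB1*, an inhibitor of neutrophil proteases, had 32.2 CPM in NC and 56.7 and 54.3 CPM in EUC and EPL (log2 0.82 and 0.75, larger adjusted p = 1.90e-05, edgeR), under the fold threshold, and *SERPINB6* passed in no group.

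**Figure D5:**
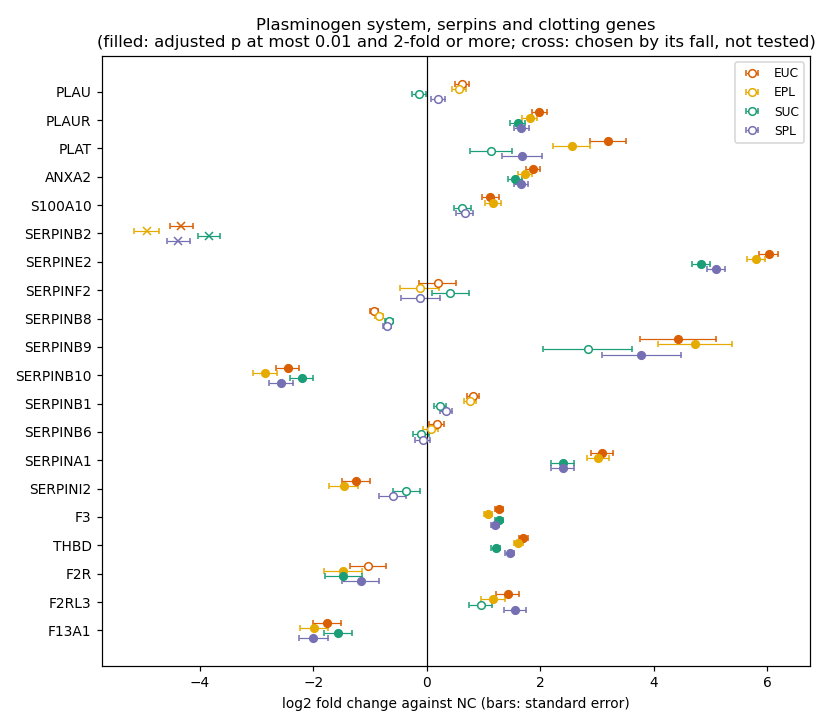
Fitted log2 fold change against NC with its standard error (x axis) of genes of plasminogen activation, binding and inhibition, of serpins and of clotting (y axis) in EUC, EPL, SUC and SPL. Filled circles are DEGs, open circles are not, and crosses mark *SERPINB2*, which was chosen by its fall. *SERPINE2* is farthest to the right at 4.83 to 6.03 and *SERPINB2* farthest to the left at -4.94 to -3.83; *SERPINB7* and *TFPI2*, with no count in NC, are left out.

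The genes whose course was most like that of *SERPINB2* were sought among 14525 genes with a mean of at least 1 CPM, by the root mean square difference of their log2 change from NC over the 12 BEV libraries. They were *REXO1L1P* (0.843), ENSG00000269243 (0.910), *TCF23* (1.03), *TERT* (1.14) and *MAP2K6* (1.19). All 5 changed less than *SERPINB2*, with a mean log2 change of -4.18 to -3.21 against -4.29, and *REXO1L1P* belongs to a multicopy family whose reads are uncertain. By correlation over the 15 libraries instead, 0 of these 5 genes were among the 5 most alike. For *PLAUR* the closest were *BID* (0.0696), *IFITM3* (0.0781) and *ANXA2* (0.0813), and for *PLAU* they were *BASP1* (0.151), *CYP3A5* (0.193) and *C1orf159* (0.194). The libraries share their depth and the NC mean, so these are descriptions.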

How the data were processed

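RNA of 15 THP-1 libraries was extracted with Trizol, prepared with a NEB kit and sequenced from both ends. The authors checked the reads with FastQC 0.11.5, aligned them to hg38 with HISAT2 2.1.0 and deposited whole-number read counts per Ensembl gene without normalization. The submitters' processing notes also list StringTie 1.3.3b, DESeq 1.28.0 and featureCounts. How strand was treated in the counting, and by which annotation, is not given in the sources used here, which leaves overlapping genes uncertain.

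The deposited counts were analysed in R 4.3.3 by edgeR 4.0.16. Low genes were removed by filterByExpr, sizes were normalized by TMM, and 1 quasi-likelihood model was fitted to all 15 libraries with p-values adjusted over 17198 genes. The study used DESeq2, run here as an alternative (1.42.0). Log2 CPM used a prior count of 2. Simulated data were used to test the fit. Group contrasts were each BEV group against NC, *E. coli* against *S. aureus*, PL against UC within species, and their interaction. Promoters come from RefSeq (GRCh38.p14), positions and exon lengths from GENCODE release 44.

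The 6 genes and the gene lists were chosen with earlier results of these data known. Named are the 6 genes, listed genes called against NC, *PLG*, *PLAT* and *SERPINF2*, neighbours in the serpin clusters and the genes most alike. *SERPINB1*, *SERPINB6*, *SERPINH1* and the proteases were named after their values were seen. Lists leave out *SERPINB2*, and some listed genes are counted but not reported here by name. No 2 libraries of the same group agreed within sampling noise.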

Additional observations from a re-analysis of the deposited data

Results flagged for a closer look

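Among the 6 genes and the listed genes called against NC, the following responded differently to the *E. coli* groups at 1 μg/mL and the *S. aureus* groups at 10 μg/mL. This is by the test of the difference itself (edgeR, adjusted p over all genes). Listed genes not called against NC are left out, among them *SERPINB1*, which differed by 0.50 (standard error 0.07, adjusted p = 0.000293). Among the 6 genes these were *SERPINA1*, with a log2 difference of *E. coli* minus *S. aureus* groups of 0.65 (standard error 0.11, adjusted p = 0.00134), and *PLAU*, with 0.56 (0.09, adjusted p = 0.000472). Among the genes of plasminogen activation and binding, *PLAT* differed by 1.47 (0.20, adjusted p = 0.000129) and *S100A10* by 0.50 (0.10, adjusted p = 0.00472). Among the inhibitors, *SERPINE2* differed by 0.94 (0.09, adjusted p = 6.25e-06), *SERPINB7* by 2.13 (0.42, adjusted p = 0.00471) and *SERPINI2*, encoding a serpin also known as pancpin, by -0.87 (0.18, adjusted p = 0.00565). Of the clotting genes, *TFPI2* differed by 1.47 (0.20, adjusted p = 0.00024) and *THBD* by 0.32 (0.05, adjusted p = 0.00111). *PLAT*, *TFPI2* and *SERPINB7* were past the 2-fold threshold as well. With 17 and 10 reads in SUC and SPL, *SERPINB7* passed the filter on low counts only through EUC and EPL, where it is high. Its difference is therefore a description, and its p-value supports nothing. Species and dose cannot be told apart in these differences. Groups of 3 libraries are too small for the check of single libraries that stand apart.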

How the results depend on the processing

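The values against NC of *PLAU*, *PLAUR*, *SERPINA1*, *SERPINE2*, *ANXA2*, *PLAT* and *SERPINB10* kept their direction and their side of the thresholds in 88 of 88 alternative values each. Each setting counts once for each of the 4 BEV groups. The settings were DESeq2, RLE and upper-quartile scaling, no filter on low counts, the replicate block, the fit to only the groups compared and each library left out. Leaving out EUC3, SUC3 and EPL1 together was added after seeing the data. In the same alternatives *SERPINB2* moved by less than 1 SD of its replicates, pooled over the groups on the log2 scale. *SERPINB9* became a DEG in 8 of its 86 alternative values, all of them in SUC, among them DESeq2 (2.99 on the log2 scale) and no filter (2.85). Without the fold threshold, 5 and 5 of the 5 tested genes were called in EUC and EPL, and 2 of the 6 between species, the latter added after seeing the data. In EUC and in EPL, 4 of the 5 were higher, *SERPINB9* among them, and 1 was lower. On p alone, 16.5% and 16.0% of all tested genes were higher in these groups and 14.0% and 13.2% lower, and 3.87% differed between species. Between species, DESeq2 called 1 of the 6 genes and the fit without a filter 1, *SERPINB9* each time, and leaving out a library gave 0 to 1, with 1 without EUC3. In the main fit 0.686% of all tested genes were DEGs by species. *SERPINB9* passed the filter on low counts only through the BEV groups, with 22 and 43 reads in SUC and SPL. Its calls between species rest on few reads and are a description. In the clade B list, the fit to only the groups compared called 1 gene in SUC and 1 in SPL, and leaving out a library gave 1 to 3 in SUC. Upper-quartile scaling moved the median of all genes by -0.0697 to -0.0953, and under it *F3* in EPL (0.99) was no DEG. *F2R* changed its call in 19 of 88 alternative values, counted over the BEV groups in the same way. The cause of these changes was not tested.

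Small differences between methods that were never called changed sign when a library was left out. These were the interaction of *SERPINB2* (-0.27 to 0.12) and of *SERPINA1* (-0.16 to 0.11), *SERPINA1* in EPL against EUC (-0.16 to 0.11, and 0.05 without the 3 libraries) and in SPL against SUC (-0.10 to 0.09, and -0.01 without a filter), *PLAU* in EPL against EUC (-0.22 to 0.04) and *PLAUR* in SPL against SUC (-0.02 to 0.19).

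Replicate numbers are shared by the groups, and no label pairs libraries by that number. Of 30 same-numbered pairs of libraries, 13 had deviations that correlated over 0.1, against 21 of 60 other pairs. The mean correlation was 0.0487 (range -0.612 to 0.831) against -0.0158 (range -0.794 to 0.69). With ranges this wide, these values cannot show whether same-numbered libraries were handled together. With the replicate block, 3, 3, 2 and 3 of the 5 genes were called in EUC, EPL, SUC and SPL, as without it, and *SERPINB2* had log2 fold changes of -4.32, -4.94, -3.84 and -4.38. Depth limits *SERPINB9* and *SERPINB7*, whose NC groups held 3 and 0 reads.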

Other observations

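Genes of clotting and its receptors moved in both directions. Of 12 listed, 9 had enough counts, and 4, 4, 3 and 4 were DEGs with a higher level and 1, 2, 2 and 2 with a lower level in EUC, EPL, SUC and SPL. The higher genes include *TFPI2* in every group, which passed the filter on low counts only through the BEV groups, so their count is a description. Over all tested genes 9.43%, 9.38%, 6.82% and 7.76% were higher and 5.75%, 5.15%, 3.06% and 3.70% lower by the same thresholds, which also apply to the lists described next. *F3*, which encodes tissue factor, the starter of clotting, rose from 58.8 ± 1.65 CPM in NC to 142, 124, 142 and 135 CPM (log2 1.27, 1.08, 1.27 and 1.20, largest adjusted p = 3.13e-09, edgeR). *THBD*, encoding the anticoagulant receptor thrombomodulin, rose from 277 ± 7.45 CPM to 899, 845, 640 and 760 CPM (log2 1.70, 1.61, 1.21 and 1.46). *TFPI2*, encoding a Kunitz-type inhibitor of plasmin and other proteases, had 0 counts in NC and was at least 63.5-fold, 73.7-fold, 21.9-fold and 27.8-fold higher than the floor of 3 counts over the NC group. It passed the filter only through the BEV groups. The gene for the coagulation factor XIII A chain, *F13A1*, fell from 12.5 CPM to 3.70, 3.15, 4.21 and 3.12 CPM (log2 -1.76, -1.99, -1.56 and -2.00). Of the thrombin receptors, *F2R* had log2 fold changes of -1.04 (missed), -1.48, -1.47 and -1.17, and *F2RL3* of 1.42, 1.17, 0.95 (missed) and 1.55.

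Of 21 listed serpins outside clade B, 11 had enough counts, and 3, 2, 2 and 2 were higher and 1, 1, 0 and 0 lower. For these and for the proteases below, the shares of all tested genes were 9.43%, 9.38%, 6.82% and 7.76% higher and 5.75%, 5.15%, 3.06% and 3.70% lower. A serpin counted as higher only in EUC passed the filter on low counts only through the BEV groups. The lower gene was *SERPINI2*, with log2 fold changes of -1.24 and -1.47 in EUC and EPL. *SERPINH1*, a collagen chaperone, fell from 188.7 CPM to 94.99, 97.5, 134 and 120 CPM (log2 -0.99, -0.95, -0.50 and -0.65), under the fold threshold in every group. Of 10 listed proteases that these serpins act on or that process them, 7 had enough counts, and 1, 1, 0 and 1 were higher, *PLAT* each time. As *PLAT* passed the filter only through the BEV groups, this count supports nothing about the list. *ELANE*, the neutrophil elastase gene and target of alpha-1 antitrypsin, had 1555, 1244, 1093, 1206 and 1111 CPM in NC, EUC, EPL, SUC and SPL and passed in no group. *GZMB*, the target of the *SERPINB9* product, had 0 to 4 reads per group.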
